A study of Mus musculus with 30 samples.

Results

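The libraries compared here came from a line of βTC3 cells, an insulin-producing tumour line from mouse pancreatic islets, whose inducible construct was labelled ALK7, and from the control line that carried the plasmid PB-33. Members were chosen by title: the 3 libraries of the ALK7-labelled line and the 3 of the control line that had received doxycycline (DOX) alone, which makes 6 of the 30 libraries of the series. Both groups had 1 µg/ml DOX for 24 h and no activin B, were grown in 6-well plates, and belonged to batch 1 per the labels. The series also held a dominant-negative form (ALK7-DN, DOX batch 1), a single hairpin against ALK7 (sh2, DOX batch 2) and a pair of hairpins (sh1/2, DOX batch 1), each line with DOX alone and with 50 ng/ml activin B for 24 h. Each construct was carried by 1 line, so the construct and the line cannot be told apart, and the 3 libraries of a group were wells of that line. The p-values therefore measure no more than the spread among wells within a line. That spread was estimated over all 30 libraries in 10 groups, and part of it may be technical.

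ALK7 is a type I receptor of the TGF-β family. Activin B and related ligands bring it together with a type II receptor, and the active complex phosphorylates SMAD2 and SMAD3, which enter the nucleus with SMAD4. BMP ligands use other type I receptors and SMAD1, SMAD5 and SMAD9, whose best known targets are the Id genes, inhibitors of helix-loop-helix transcription factors. In beta cells ALK7 is known for restraining insulin secretion. The comparison asks how the line labelled ALK7 differs from its control before activin B is added.

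The 6 libraries held between 21065952 and 28723549 counts, within the range of 18904884 to 34740789 over all 30. Of 39017 genes in the count table, 15627 passed the low-count filter. Levels are given as CPM, the counts scaled to a fixed library size, with the standard deviation (SD, n = 3), differences as log2 fold changes of the ALK7-labelled over the control line with their standard error (SE), and adjusted p-values come from edgeR's quasi-likelihood test with Benjamini-Hochberg adjustment over all genes tested. A gene is called when its adjusted p is under 0.05. Beta-cell markers were present in both groups. Ins1, an insulin gene, stood at 3422 ± 222 CPM in control and 3392 ± 120 CPM in ALK7-labelled libraries (-0.01, adjusted p = 0.984), and Iapp, the amylin gene, differed by 0.07 (adjusted p = 0.748). Genes of the mitochondrial genome held 0 counts throughout.

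The targeted gene came first. Acvr1c encodes ALK7 and lies at chr2:58267453-58357895 on the minus strand (mm10). It stood at 167, 158 and 170 CPM in the control libraries and at 163, 142 and 158 CPM in the ALK7-labelled ones. The groups overlapped, and the difference was -0.10 ± 0.10 (adjusted p = 0.754). The construct's sequence is not given in the sources used here, so whether its transcript would be counted as Acvr1c is not known. The construct was not visible in the Acvr1c counts, and the group is called ALK7-labelled throughout. ALK7-DN libraries held 161 ± 7.50 CPM, while sh2 and sh1/2 held 68.5 ± 12.8 and 55.3 ± 8.0 CPM.

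Across all genes the lines nonetheless differed. Of the 15627 genes tested, 310 were called (1.98%), 161 higher (1.03%) and 149 lower (0.953%), and 2134 had an unadjusted p under 0.05. Most differences were small. The median size among the called genes was 0.41 on the log2 scale, 87 reached 1.5-fold, and 30 reached 2-fold (10 higher, 20 lower). In 308 of the 310 the ALK7-labelled and control libraries did not overlap, against 24.2% of all genes tested. The other two were Pgk1-rs7 (48.0, 0.558 and 0.338 CPM in control) and Rpl31-ps16 (3.55, 20.6 and 0 CPM in ALK7-labelled libraries), retrocopies or pseudogenes named after their values were seen, whose calls rested on 1 or 2 libraries and whose counts are uncertain. The count fell to between 151 and 162 when any 1 library other than control replicate 2 was left out (157, 156 and 162 without ALK7-labelled replicates 1, 2 and 3, 161 and 151 without control replicates 1 and 3), and it was 226 without control replicate 2. A fit on the 6 libraries alone called 159 genes, 119 of them among the 310. The shares of all genes given here are the background for the list counts below.

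**Figure D1:**
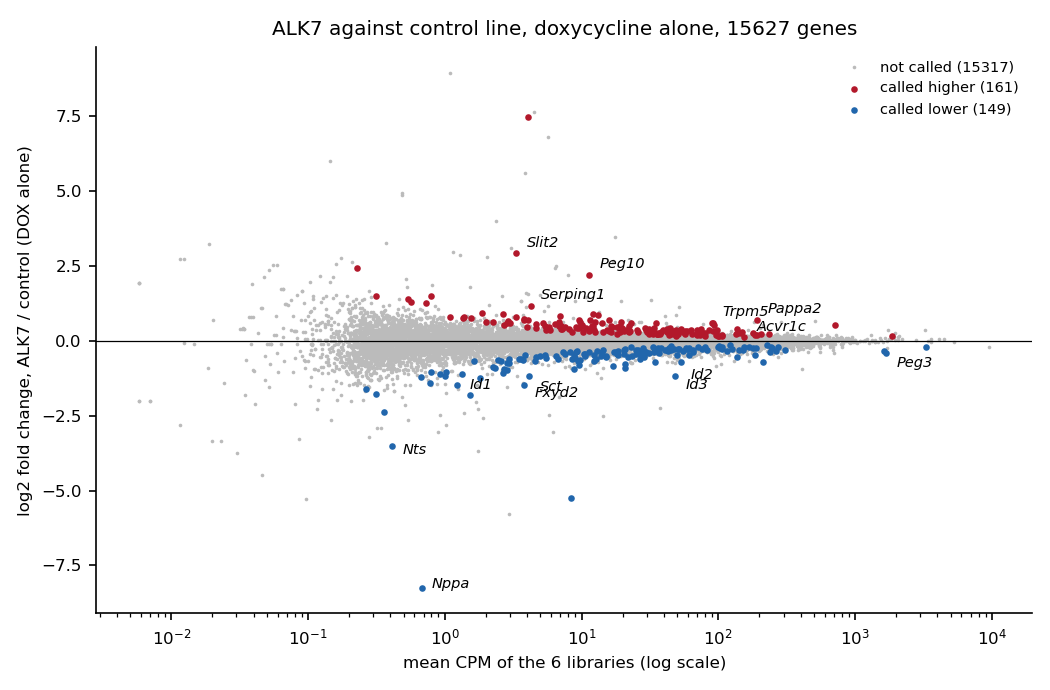
Each point is a gene tested, with its mean level in CPM over the 6 libraries on the horizontal axis (log scale) and the log2 fold change of the ALK7-labelled over the control line on the vertical axis. Coloured points are the 161 genes called higher and the 149 called lower, and 30 of the 310 lie at or beyond a 2-fold difference.

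The promoters of 4 genes that the results turn on are printed here because Id2, Id3 and Smad9 are known targets of BMP signalling and Slit2 had the largest rise among the named genes. They are the 250 bases upstream of the RefSeq start (GRCm38.p6), written 5′ to 3′ on the strand of the gene. Capitals mark GGCGCC, a motif bound by SMAD1 and SMAD5, and CAGAC, a motif bound by SMAD3 and SMAD4, searched on both strands, so that a CAGAC on the other strand appears as GTCTG. Id2 is at chr12:25096093-25096342 on the minus strand, Id3 at chr4:136143572-136143821, Smad9 at chr3:54755332-54755581 and Slit2 at chr5:47982905-47983154, these 3 on the plus strand.
Id2: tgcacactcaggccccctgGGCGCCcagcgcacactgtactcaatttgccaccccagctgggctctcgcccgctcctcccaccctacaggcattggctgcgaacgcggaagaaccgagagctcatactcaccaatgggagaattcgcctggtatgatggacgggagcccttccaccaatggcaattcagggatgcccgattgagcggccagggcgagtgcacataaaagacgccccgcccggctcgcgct
Id3: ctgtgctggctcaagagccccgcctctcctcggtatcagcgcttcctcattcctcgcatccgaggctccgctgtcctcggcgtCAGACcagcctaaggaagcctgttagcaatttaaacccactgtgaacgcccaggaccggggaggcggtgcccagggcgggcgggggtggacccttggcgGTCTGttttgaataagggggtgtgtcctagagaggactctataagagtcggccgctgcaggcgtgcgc
Smad9: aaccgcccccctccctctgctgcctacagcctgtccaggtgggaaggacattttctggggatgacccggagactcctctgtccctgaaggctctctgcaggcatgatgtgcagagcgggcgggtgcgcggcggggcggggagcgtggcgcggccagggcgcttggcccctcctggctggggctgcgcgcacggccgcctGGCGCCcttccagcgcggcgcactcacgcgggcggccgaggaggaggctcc
Slit2: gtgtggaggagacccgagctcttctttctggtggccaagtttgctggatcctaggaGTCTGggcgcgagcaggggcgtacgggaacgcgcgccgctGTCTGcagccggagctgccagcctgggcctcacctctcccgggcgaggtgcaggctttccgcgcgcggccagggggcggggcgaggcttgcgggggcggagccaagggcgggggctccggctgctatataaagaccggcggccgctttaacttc
GGCGCC occurred once in the Id2 and once in the Smad9 promoter, and CAGAC occurred 2 times in the Id3 and 2 times in the Slit2 promoter. Of 32851 promoters of the same length, 9.59% held GGCGCC and 42.2% held CAGAC. A match is a description of these letters, not a binding site.

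The clearest difference in the TGF-β pathway was in the Id genes, known targets of BMP signalling: 3 of the 4 were lower in the ALK7-labelled line. Id3 (chr4:136143497-136145755, plus strand) stood at 70.8, 62.3 and 68.8 CPM in control and at 24.7, 37.0 and 26.7 CPM in ALK7-labelled libraries. The highest ALK7-labelled library was well below the lowest control library (-1.19 ± 0.20, adjusted p = 0.00133). Id2 (chr12:25093799-25097140, minus strand) fell from 66.1, 66.3 and 65.3 CPM to 39.2, 42.2 and 39.3 CPM (-0.71 ± 0.06, adjusted p = 4.01e-08). Id1 (chr2:152736251-152737410, plus strand), at low counts, stood at 3.56, 4.43 and 3.34 CPM in control and at 1.74, 2.03 and 2.00 CPM in ALK7-labelled libraries (-0.97 ± 0.24, adjusted p = 0.0278). This call ended with any 1 of the 6 libraries left out (adjusted p from 0.0529 to 0.129). Id4 differed by -0.02 (adjusted p = 0.959). Between control libraries with activin B and with DOX alone, Id1, Id2 and Id3 were called by the same edgeR test. Id4 was not called there (0.24, adjusted p = 0.0999). In control libraries with activin B, Id3 was at 20.1 ± 3.56 and Id1 at 2.24 ± 0.44 CPM, below control with DOX alone. Id2 was at 75.3 ± 0.88 and Id4 at 12.2 ± 1.90 CPM there, above control with DOX alone. Whether BMP signalling differed between the lines was not tested.

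Of the 12 measured genes in the list of BMP and SMAD1/5 targets, 4 were lower and 1 higher, against 0.953% and 1.03% of all genes tested. The list median was -0.09 beside 0.00 over all genes tested. The fourth lower gene was Smad9 (chr3:54755582-54801257, plus strand), a BMP-side SMAD that is itself a BMP target. It stood at 43.6, 39.5 and 42.5 CPM in control and 32.6, 29.5 and 32.3 CPM in ALK7-labelled libraries, without overlap (-0.41 ± 0.07, adjusted p = 0.00118). Bambi (chr18:3507923-3516404, plus strand), a pseudoreceptor that dampens TGF-β signals, was the higher one, at 33.2, 33.5 and 32.0 CPM against 41.8, 38.0 and 36.9 CPM (0.24 ± 0.06, adjusted p = 0.0303). The Bambi call ended with the GC correction (adjusted p = 0.216) and with any 1 library other than ALK7-labelled replicate 3 left out (0.0620 to 0.194). With any 1 library left out, between 3 and 4 of the list were called.

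The same genes stood as follows in the ALK7-DN line, the other expression construct on this plasmid backbone. Id2 was at 66.3 ± 2.13 CPM and Id3 at 72.2 ± 6.31 CPM in ALK7-DN libraries with DOX alone. Tested directly, the ALK7-labelled line was below ALK7-DN in Id2 (-0.72 ± 0.06, adjusted p = 2.89e-08), Id3 (-1.29, adjusted p = 0.000355) and Id1 (-1.17, adjusted p = 0.00458), but Smad9 did not pass (-0.24, adjusted p = 0.0695). In sh2 and sh1/2 cells Id2 was at 89.5 and 92.2 CPM, above all 6 libraries compared here.

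Receptors and SMADs showed little else. Of 14 measured activin and TGF-β receptor genes, Bambi alone was called; the type I receptor Acvr1b stood at 27.4 ± 2.14 and 27.7 ± 1.25 CPM (0.02, adjusted p = 0.971) and the type II receptor Acvr2a at 44.7 ± 1.66 and 44.9 ± 2.04 CPM (0.01, adjusted p = 0.993). Of 23 SMADs and SMAD regulators, Smad9 alone was called, and Smad1, another BMP-side SMAD, was at 34.8 ± 0.572 and 34.7 ± 1.17 CPM. Smad7, the inhibitory SMAD that TGF-β family signals induce, was at 2.81 ± 0.456 and 2.23 ± 0.197 CPM (-0.32, adjusted p = 0.327). Of 25 SMAD2/3 targets 1 was higher (Bambi) and 1 lower (Tsc22d1, -0.19 ± 0.04, adjusted p = 0.00624, a call that ended with the GC correction at 0.779 and without ALK7-labelled replicate 1 at 0.0563). The list median was -0.14 beside 0.00 over all genes tested, and 9 of the 25 had a positive log2 fold change. At an unadjusted p under 0.05, 3 of these targets were higher and 5 lower. Of 18 ligands and antagonists, the BMP antagonist Nbl1 (chr4:139082284-139092993, minus strand) was lower, from 12.3 ± 0.681 to 7.01 ± 0.529 CPM (-0.81 ± 0.11, adjusted p = 0.000164). Grem1, another BMP antagonist, differed by 1.07 ± 0.29 and was not called (adjusted p = 0.0549).

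**Figure D2:**
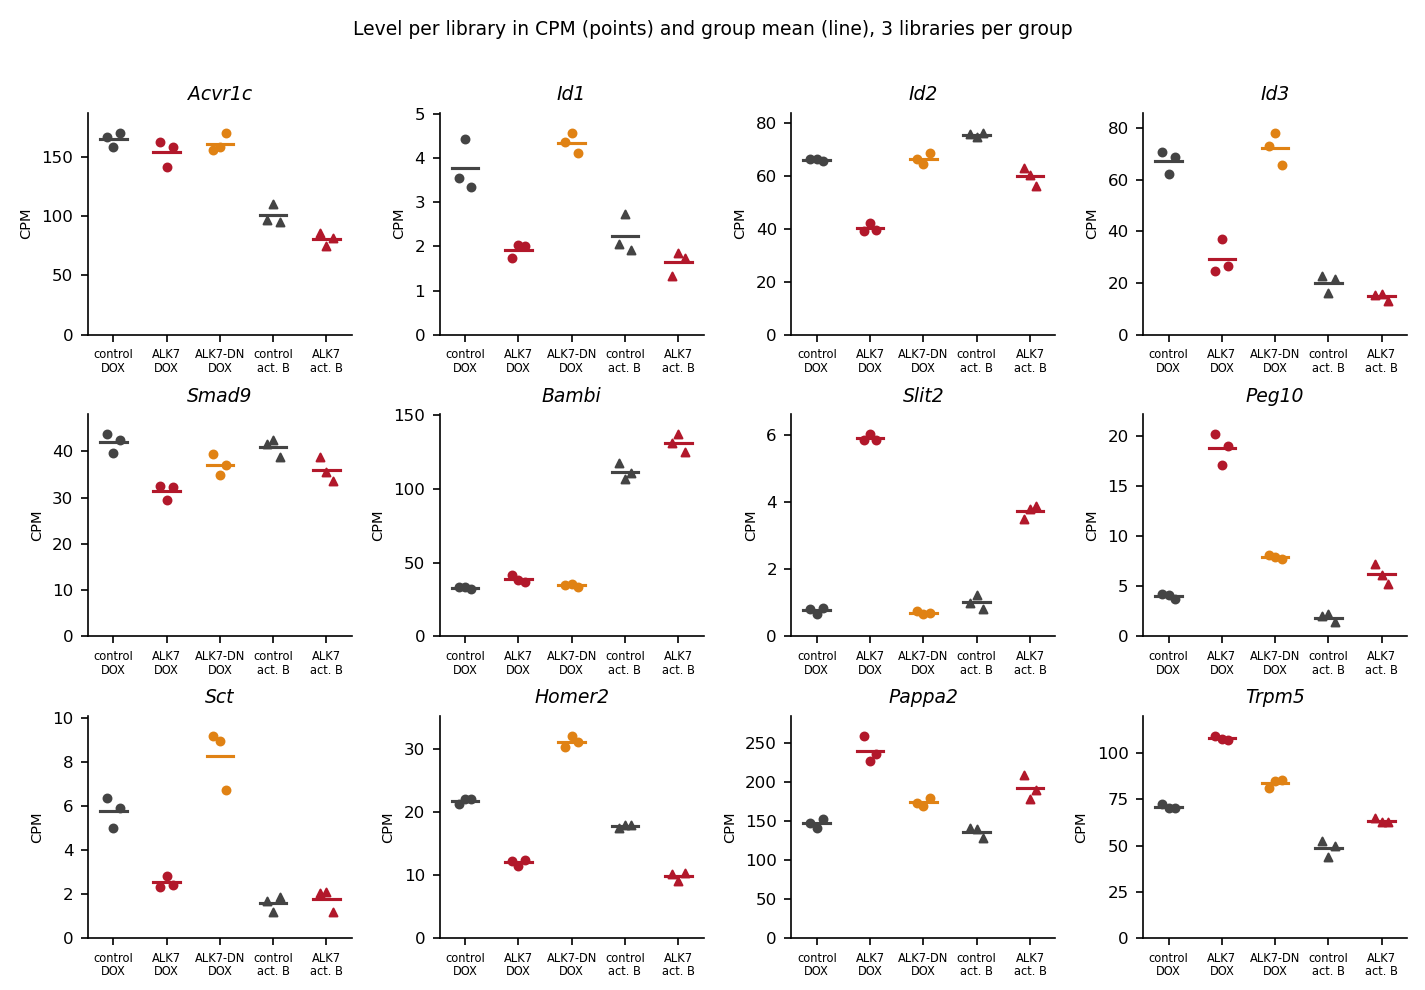
Each panel is a gene and each point a library, in CPM on an axis that starts at 0, for control, ALK7-labelled and ALK7-DN cells with DOX alone and control and ALK7-labelled cells with activin B; short lines are group means. Acvr1c overlaps between control and ALK7-labelled libraries with DOX alone, while the Id2, Slit2, Peg10 and Trpm5 libraries of these groups are separate.

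Genes that respond to activin B were described next, as chosen in lines that this comparison does not use. In ALK7-DN, sh2 and sh1/2 cells, 162 genes were called higher with activin B and at least 2-fold in all 3 lines, and 74 lower. With DOX alone, 19 of the 162 were higher and 1, Snx31, was lower in the ALK7-labelled line than in the control, which is 12.3% called against 1.98% of all genes, and 113 of the 162 had a positive log2 fold change. The 19 include Bambi, Cald1, Gap43, Krt7, Pax4, Prr5l, Serpina1c and Serpina1e. Other paragraphs describe the same calls, so these are not separate results. The median over the 162 was 0.19, and each ALK7-labelled library had a positive median against the control mean (0.19, 0.14 and 0.18, with control libraries at 0.04, -0.02 and -0.01). Of the 74 lowered genes, 2 were higher (Lcp2 and Ntrk2) and 5 lower (Id1, Id3, Sct, Slc5a7 and Cbln2), with a median of -0.05. The call of Snx31 ended without ALK7-labelled replicate 1 (0.0661) or control replicate 1 (0.0966), and that of Ntrk2 with any 1 of the 6 libraries left out (0.0527 to 0.193). That of Lcp2 ended without ALK7-labelled replicate 2 (0.0750) or control replicate 1 or 3 (0.0898 and 0.0768), and that of Slc5a7 without ALK7-labelled replicate 2 or 3 (0.0711 and 0.0950) or control replicate 1 or 2 (0.104 and 0.0518). Calls among the 19 higher genes ended as well. That of Reln ended without ALK7-labelled replicate 1 (0.127) or control replicate 1 or 2 (0.0963 and 0.0974). Those of Bambi, Prr5l and Serpina1c also ended without 1 library, as given in their own paragraphs. The median of the raised genes depended on how members were chosen: it was 0.07 with members from sh1/2 cells alone and 0.05 with no minimum fold. In the ALK7-DN and sh2 lines batch and activin B treatment coincided.

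The gene with the largest named rise was Slit2 (chr5:47983138-48307733, plus strand), a secreted ligand of the ROBO receptors that guides axons. It stood at 0.818, 0.662 and 0.845 CPM in control and at 5.84, 6.02 and 5.86 CPM in ALK7-labelled libraries (2.93 ± 0.22, adjusted p = 1.50e-08). The other lines were near the control, with 0.702 ± 0.0389 CPM in ALK7-DN, 0.687 ± 0.223 in sh2 and 0.841 ± 0.247 in sh1/2. Against ALK7-DN the difference was 3.06 ± 0.22 (adjusted p = 3.24e-09). Its receptor genes Robo1 (-0.10, adjusted p = 0.640) and Robo2 (0.04, adjusted p = 0.869) were not called. Of 40 measured axon guidance genes 3 were higher and 0 lower, against 1.03% and 0.953% of all genes tested. Besides Slit2 these were the ephrin receptor Epha5 (0.49, adjusted p = 0.0249) and the semaphorin Sema3a (0.40, adjusted p = 0.0494). The calls of Epha5 and Sema3a ended with any 1 library other than control replicate 2 left out in Epha5 (0.0591 to 0.162) and with any 1 of the 6 left out in Sema3a (0.0966 to 0.235).

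Imprinted genes, which are expressed from the allele of one parent, moved in both directions. Of 24 measured, 3 were higher and 7 lower, against 1.03% and 0.953% of all genes tested, and the list median was -0.05. Several called members are neighbours on a chromosome, as given below, so the calls are not separate results. Peg10 (chr6:4747306-4760517, plus strand), a retrotransposon-derived gene active from the paternal allele, stood at 4.23, 4.15 and 3.72 CPM in control and at 20.1, 17.0 and 19 CPM in ALK7-labelled libraries, far apart (2.21 ± 0.13, adjusted p = 2.76e-10). Unlike Slit2, its level varied over the other lines too, with 7.89 ± 0.233 CPM in ALK7-DN, 7.74 ± 0.670 in sh2 and 28.8 ± 4.25 in sh1/2. The ALK7-labelled line was above ALK7-DN by 1.25 ± 0.13 (adjusted p = 1.10e-06).

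The neighbours of Peg10 on chromosome 6 did not all go the same way. Asb4 (chr6:5383386-5433022, plus strand) fell from 17.4, 17.8 and 18 CPM to 12.1, 12.5 and 12.2 CPM (-0.53 ± 0.07, adjusted p = 8.72e-05). Sgce and Ppp1r9a, chosen after their values were seen as genes beside Peg10, were higher, Sgce (chr6:4674350-4747207, minus strand) by 1.26 ± 0.30 at low counts (0.481, 0.314 and 0.507 against 0.987, 1.12 and 0.983 CPM, adjusted p = 0.0244) and Ppp1r9a (chr6:4902917-5165661, plus strand) by 0.50 ± 0.11 (8.38 ± 0.808 to 11.9 ± 0.485 CPM, adjusted p = 0.0191). Casd1, the next gene on the other side of Sgce, differed by 0.05 (adjusted p = 0.851). The Sgce call ended with any 1 of the 6 libraries left out (adjusted p from 0.0612 to 0.128), and that of Ppp1r9a without ALK7-labelled replicate 1 or 3 or control replicate 1 or 3 (0.0636, 0.0896, 0.102 and 0.126).

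At the Dlk1 and Meg3 locus on chromosome 12, the noncoding RNA Meg3 fell from 270, 265 and 271 CPM to 202, 219 and 208 CPM (-0.36 ± 0.05, adjusted p = 0.000187). Dlk1 (chr12:109452823-109463336, plus strand), a membrane ligand related to Notch ligands, was at 2.16, 1.71 and 1.56 CPM in control and at 0.474, 0.840 and 0.629 CPM in ALK7-labelled libraries (-1.46 ± 0.29, adjusted p = 0.00568). Further lower genes were Rian (-0.29 ± 0.08, adjusted p = 0.0458), Ndn (-0.61 ± 0.13, adjusted p = 0.00973), the zinc finger gene Peg3 (-0.40 ± 0.09, adjusted p = 0.0197) and Snrpn (-0.37, adjusted p = 0.0463). Dlk1, Rian, Ndn, Peg3 and Snrpn were named after their values were seen. Without 1 library the calls of Rian (any of the 6, 0.0999 to 0.144), Snrpn (any of the 6, 0.0549 to 0.233), Peg3 (any but control replicate 2, 0.0539 to 0.107) and Ndn (ALK7-labelled replicate 1 or 3, 0.0580 and 0.0519) ended, and between 4 and 7 of the list were called. Ndn, Peg3 and Snrpn lie on chromosome 7, where the log2 fold changes of all 1157 genes tested had a median of -0.095; its part in these results was not tested.

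**Figure D3:**
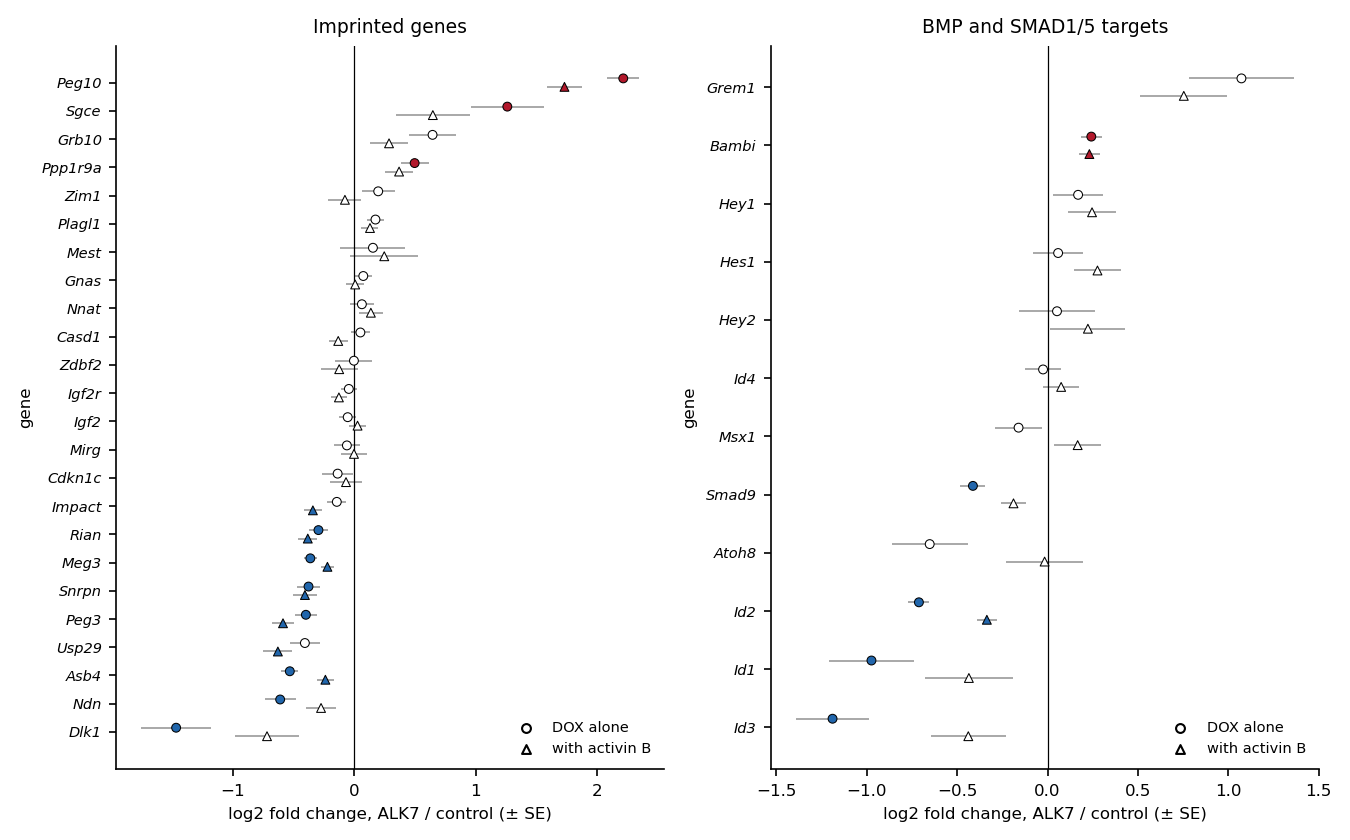
Log2 fold change of the ALK7-labelled over the control line (horizontal axis, with its SE) for each measured imprinted gene and each measured BMP and SMAD1/5 target, as circles for DOX alone and triangles for activin B, filled where called. Peg10 stands at the top of the imprinted genes at 2.21 with DOX alone, and Id3 at -1.19 is the lowest called gene of the BMP list.

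Genes of cholesterol synthesis, uptake and export were lower by a small amount as a list. Of 30 measured, 0 were higher and 3 lower by the adjusted test, 16 were lower and 2 higher at an unadjusted p under 0.05, and 27 had a negative log2 fold change. The list median was -0.22 beside 0.00 over all genes, and the summed level was 5743 to 5867 CPM in control and 4907 to 5093 CPM in ALK7-labelled libraries, which did not overlap. Squalene epoxidase, Sqle, was at 259, 278 and 260 against 215, 235 and 230 CPM (-0.23 ± 0.06, adjusted p = 0.0363), and lanosterol synthase, Lss, at 298, 291 and 293 against 259, 247 and 252 CPM (-0.22 ± 0.05, adjusted p = 0.0287). The calls depended on single libraries: 0 of the list were called without ALK7-labelled replicate 2 or 3 or control replicate 1 or 3, 1 without ALK7-labelled replicate 1 and 2 without control replicate 2, while 15 were called lower with the GC correction. With activin B, in other libraries of the same lines, 15 of the 30 were lower and the median was -0.30.

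In the beta-cell list, Trpm5, a calcium-activated cation channel of taste and beta cells, was the 1 called gene of 37. It stood at 72.3, 70.2 and 70.4 CPM in control and at 109, 108 and 107 CPM in ALK7-labelled libraries (0.61 ± 0.06, adjusted p = 4.67e-07). At an unadjusted p under 0.05, 3 of the 37 were higher and 8 lower, and 15 had a positive log2 fold change. Ins2 was at 10309 ± 402 and 8922 ± 654 CPM (-0.21, adjusted p = 0.638) and the beta-cell transcription factor gene Nkx6-1 differed by -0.18 (adjusted p = 0.152). Mafa, another such factor gene, was at 18.8 ± 6.14 and 9.89 ± 2.31 CPM without overlap (-0.92 ± 0.51, adjusted p = 0.447). The markers Pdx1 (-0.08), Neurod1 (-0.12), Chga (0.02) and Slc2a2 (0.29) were not called either. Of 24 secretory granule genes 1 was higher (Cpe, carboxypeptidase E, 0.15, adjusted p = 0.0403) and 2 lower (Scg2, secretogranin II, from 1827 ± 166 to 1429 ± 52.7 CPM, -0.35 ± 0.08, adjusted p = 0.0139, and Ncald, -0.16, adjusted p = 0.0486). With any 1 of the 6 libraries left out the calls of Cpe (0.0534 to 0.306) and Ncald (0.0836 to 0.188) ended, and that of Scg2 ended without ALK7-labelled replicate 1 or 2 or control replicate 2 or 3 (0.0777, 0.0612, 0.0863 and 0.0613). Of 36 exocytosis genes 0 were called, with 1 higher and 6 lower at an unadjusted p under 0.05. Of 13 endocrine progenitor genes, Pax4, a factor of beta-cell precursors, was higher (0.50, adjusted p = 0.000825).

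Of 18 measured hormone and neuropeptide genes, 2 were lower. Sct, which encodes secretin, stood at 6.35, 4.98 and 5.92 CPM in control and at 2.33, 2.83 and 2.40 CPM in ALK7-labelled libraries (-1.18 ± 0.28, adjusted p = 0.0210). Its call ended with any 1 library other than control replicate 2 left out (0.0575 to 0.102). Nts, which encodes neurotensin, was at 0.673, 0.767 and 0.845 CPM against 0.118, 0.0350 and 0.0393 CPM (-3.51 ± 0.56, adjusted p = 0.000682), so that few counts remained. ALK7-DN and sh2 libraries were also low in Nts (0.129 and 0.0744 CPM) and sh1/2 libraries were not (0.664 CPM).

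Genes of insulin-like growth factor signalling included a protease and a binding protein that went in opposite directions. Pappa2, a protease that cleaves IGF-binding proteins, rose from 147, 141 and 152 CPM to 258, 226 and 235 CPM (0.71 ± 0.09, adjusted p = 7.43e-05). Igfbp2 fell from 12.5, 9.76 and 12.6 CPM to 6.27, 6.68 and 5.11 CPM (-0.94 ± 0.19, adjusted p = 0.00813), a call that ended without ALK7-labelled replicate 3 (0.0649). The third called gene of the 28 was Prr5l, a regulator of mTORC2, at 0.159 and 0.468 CPM (1.49 ± 0.34, adjusted p = 0.0406), a call that ended with any 1 library other than control replicate 3 left out (0.0774 to 0.310).

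Other clear rises were the complement inhibitor Serping1 (2.98, 2.37 and 2.49 against 5.88, 5.77 and 5.98 CPM, 1.17 ± 0.12, adjusted p = 9.38e-07), the gluconeogenic enzyme gene Fbp1 (0.87 ± 0.10, adjusted p = 1.71e-05) and the actin-binding Cald1 (0.61 ± 0.09, adjusted p = 0.000217). Clear falls were the synaptic scaffold gene Homer2 (21.2, 22.1 and 22.0 against 12.2, 11.4 and 12.4 CPM, -0.85 ± 0.08, adjusted p = 5.01e-07), the sorting receptor gene Sorcs1 (27.3 ± 0.962 to 14.6 ± 0.651 CPM, -0.90 ± 0.07, adjusted p = 4.01e-08), the Na,K-ATPase regulator Fxyd2 (6.49, 5.05 and 5.20 against 2.05, 2.13 and 1.81 CPM, -1.47 ± 0.19, adjusted p = 7.43e-05), the vitamin D-binding protein gene Gc (-0.79 ± 0.07, adjusted p = 4.64e-08) and the protocadherin Pcdh10 (222, 203 and 223 against 155, 156 and 157 CPM, -0.47 ± 0.05, adjusted p = 8.51e-06). In none of these 8 genes did the groups overlap. This is no separate support, since it held in 308 of the 310 called genes and some naming rules required it. Serpina1e (0.83 ± 0.12, adjusted p = 0.000201) and Serpina1c (0.64, adjusted p = 0.0178, ending without ALK7-labelled replicate 1 at 0.142 or control replicate 2 or 3 at 0.0938 and 0.0761) were called higher, but they belong to a family of near-identical copies whose reads may be split and are uncertain.

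Stress, growth and contaminating-cell lists showed few calls. Of 40 G1/S genes, 40 G2/M genes, 22 cyclins with their kinases and inhibitors, 30 unfolded protein response genes and 33 ATF4 targets, 0 were called by edgeR, with 7, 4, 1, 3 and 0 higher and 3, 0, 2, 0 and 8 lower at an unadjusted p under 0.05. In the ATF4 list 6 of 33 had a positive log2 fold change, with a median of -0.08. Its summed level did not overlap, at 5266 to 5356 CPM in control and 5058 to 5108 CPM in ALK7-labelled libraries. Sums were also apart, and higher in ALK7-labelled libraries, for the G1/S and unfolded protein response lists. In the G2/M list 32 of 40 had a positive log2 fold change, with a median of 0.05 and overlapping sums. Of 23 oxidative stress genes 2 were higher, the quinone reductase Nqo1 (84.5 ± 4.86 to 110 ± 1.47 CPM, 0.38 ± 0.06, adjusted p = 0.000916) and the thioredoxin inhibitor Txnip (0.30, adjusted p = 0.0254, and 0.0511 to 0.162 with any 1 library left out). Of 12 replication-dependent histone genes 3 were lower and 12 had a negative log2 fold change, with Hist1h1c at 58.8, 55.9 and 58.2 against 41.8, 42.4 and 41.6 CPM (-0.46 ± 0.11, adjusted p = 0.0249, from 0.0523 to 0.0950 with any 1 library left out). These genes have near-identical copies and are uncertain. Stromal and endothelial (5 measured) and immune markers (4 measured) had 0 calls, exocrine and duct markers 1 of 7 (the keratin gene Krt7, 0.59) and neural markers 1 of 14 (Gap43, 0.49). Krt7 and Gap43 are also among the genes that activin B raised in all 3 other lines.

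Activin B libraries of the same lines, 3 and 3 that the DOX comparison does not use, were compared by the same test. There 708 genes were called between the ALK7-labelled and control lines (4.53%), 326 higher and 382 lower. Leaving out ALK7-labelled activin B replicate 1 or 2 or control activin B replicate 2 gave 391, 360 and 392. Of the 310 genes called with DOX alone, 155 were also called with activin B in the same direction (63 higher, 92 lower), which is 50% of the first list and 21.9% of the second, 0 were called in the opposite direction, and 290 of the 310 had the same sign. The share of same signs over all genes tested was not counted, so the 290 has no background here. Slit2 (1.88 ± 0.21, adjusted p = 5.44e-06), Peg10 (1.73 ± 0.14, adjusted p = 7.39e-08), Serping1 (1.1, adjusted p = 1.11e-06), Trpm5 (0.38, adjusted p = 0.000217), Homer2 (-0.85, adjusted p = 6.09e-07) and Sorcs1 (-1.29, adjusted p = 2.50e-10) recurred. Among the Id genes Id2 was called with activin B (75.3 ± 0.882 against 59.7 ± 3.34 CPM, -0.34 ± 0.06, adjusted p = 0.000659), and Id3 (20.1 ± 3.56 against 14.8 ± 1.58 CPM, -0.44, adjusted p = 0.261) and Id1 (-0.43, adjusted p = 0.343) were not. The difference between the arms was itself tested: 4 genes were called (0.0256%), 1595 had an unadjusted p under 0.05, DESeq2 called 33, and Id2 was not among the 4 (0.38, adjusted p = 0.0900).

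**Figure D4:**
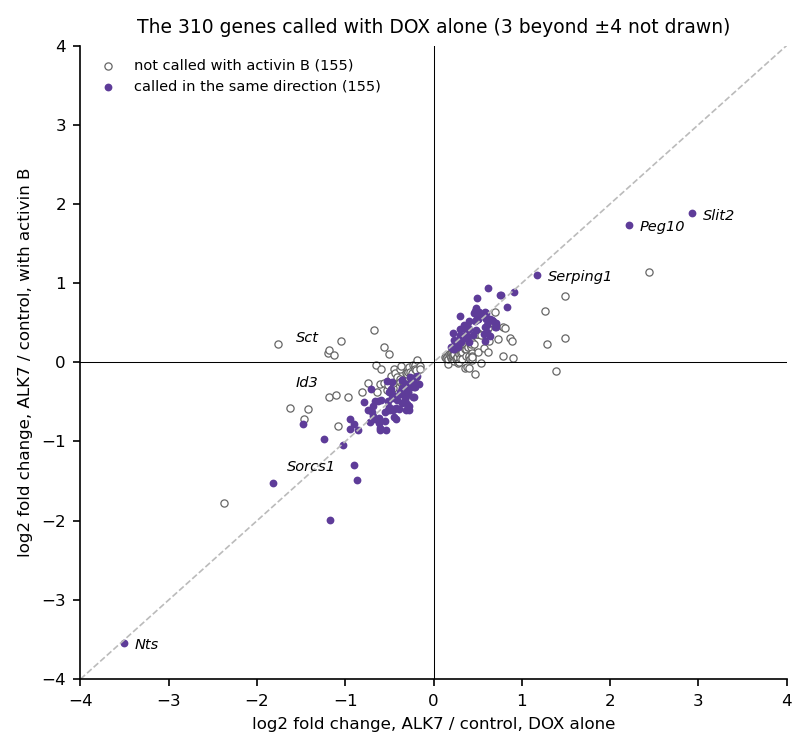
Each point is 1 of the 310 genes called with DOX alone, with its log2 fold change there on the horizontal axis and in the activin B libraries on the vertical axis; 3 genes beyond 4 in size are not drawn. Filled points are genes called in both arms, all in the same direction.

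Against the ALK7-DN line with DOX alone, 383 genes were called (2.45%), 200 higher and 183 lower, and between 206 and 232 with any 1 of these 6 libraries other than ALK7-DN replicate 3 left out. That comparison shares the ALK7-labelled libraries with the one described here, so overlaps are not given. Among the 310 genes, in a count made after the values were seen, all 3 ALK7-labelled libraries lay outside the range of the 12 other DOX libraries in 106 genes (60 above, 46 below, 34.2%, against 3.09% of all genes tested), and all 3 control libraries lay outside in 59 genes (33 above, 26 below, 19.03%, against 1.82% of all genes tested). In 150 neither held, so that for many genes another line stood at or beyond the level of one of these groups. Without the sh2 libraries, which are in batch 2, the counts were 135 and 73. The 310 genes were selected for a difference between the ALK7-labelled and control groups. Higher shares than over all genes were thus partly fixed in advance, and they do not show to which line a difference belongs.

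Nppa (chr4:148000722-148002079, plus strand), the natriuretic peptide A gene, was named after its values were seen as a case where the control line stood apart. It was at 1.44, 1.22 and 1.39 CPM in control libraries and had 0 counts in every ALK7-labelled, ALK7-DN, sh2 and sh1/2 library with DOX alone. Against a floor of 3 counts over the ALK7-labelled group, its level was at least 35.8-fold lower than in control (adjusted p = 0.000278). The control libraries with activin B also held it, at 1.45 ± 0.359 CPM. Of the 4 Rag GTPase genes, which carry amino acid signals to mTORC1 and were also picked after their values were seen, 3 were lower by a small amount, Rragb (-0.26 ± 0.05, adjusted p = 0.00924), Rragc (-0.23 ± 0.05, adjusted p = 0.0149) and Rragd (-0.30 ± 0.07, adjusted p = 0.0185). The calls ended without ALK7-labelled replicate 3 in Rragb (0.0701) and with any 1 library other than control replicate 1 left out in Rragc (0.0513 to 0.0837) and Rragd (0.0568 to 0.0841). Rraga differed by -0.14 (adjusted p = 0.129). ALK7-DN libraries, set against the same control libraries, had log2 fold changes of -0.23 in Rragb, -0.18 in Rragc and -0.34 in Rragd. ALK7-labelled against ALK7-DN gave -0.03 (adjusted p = 0.839), -0.05 (adjusted p = 0.691) and 0.04 (adjusted p = 0.836).

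Genes called lower were not evenly spread over chromosomes, a pattern also seen after the fact. On chromosome 4, 22 of 1071 genes were lower and 5 higher, with a median log2 fold change of -0.075, and on chromosome 7, 23 of 1157 were lower and 7 higher, with a median of -0.095. Over all genes tested 0.953% were lower. Chromosome 12 also held many calls for its size, with 11 lower and 11 higher of 539 genes, but its median was 0.019. Medians of the chromosomes other than 4 and 7 ran from -0.016 to 0.036. The 3 ALK7-labelled libraries were each below the control mean on chromosome 4 (-0.083, -0.072 and -0.083, with control libraries at 0.008, -0.003 and 0.004) and on chromosome 7 (-0.095, -0.081 and -0.122, with control libraries at 0.030, -0.025 and 0.007). Chromosomes 4 and 7 were chosen for these values, so no test is given. The ALK7-DN line against the same control libraries had a median of -0.050 on chromosome 4 and 0.003 on chromosome 7, and ALK7-labelled against ALK7-DN -0.013 and -0.086. With activin B the medians were -0.058 on chromosome 4 and -0.0005 on chromosome 7, and with the GC correction -0.088 and -0.067. Id3, Nbl1, Nppa, Rragc and Rragd are on chromosome 4, and its part in their differences was not tested.

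**Figure D5:**
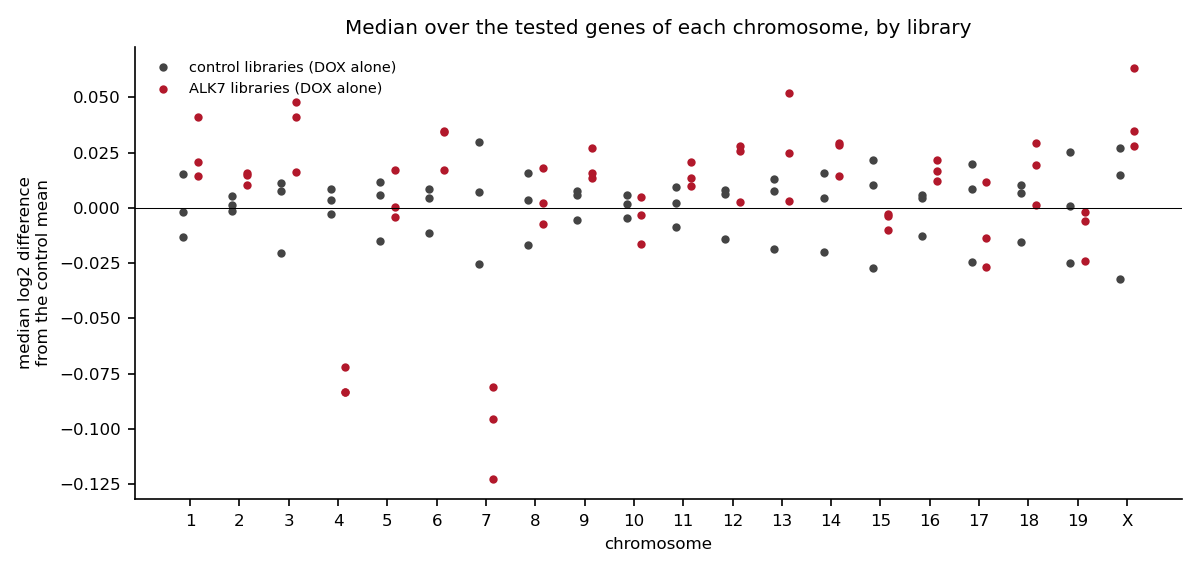
Median log2 difference from the control mean over the genes tested on each chromosome, with 1 point per library for the 3 control and 3 ALK7-labelled libraries with DOX alone. The ALK7-labelled points lie below those of control on chromosomes 4 and 7, between -0.122 and -0.072.

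GC content moved with the comparison. Across 15453 genes with a known GC content, the log2 fold change correlated with GC content at a Spearman rho of -0.241, a description across genes, and the control libraries differed among themselves in the same respect (0.527, -0.459 and -0.0712 for replicates 1 to 3). With each library's GC trend removed, 766 genes were called (4.9%), 343 higher and 423 lower, among them 286 of the 310.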

How the data were processed

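Poly(A) RNA of βTC3 lines was sequenced. RNA came from Trizol extracts, and 500 ng went into each stranded mRNA library, per the labels' protocols. Reads were processed with bcl2fastq 2.17, cutadapt 1.4.2, HISAT2, featureCounts 1.4.4 on mm10, per the submitters' processing notes. Strand use in the counting and the treatment of reads with several matches are not given in the sources used here. The authors deposited integer read counts per gene, and all 30 columns were identical to the files of single samples, with 0 columns unassigned. A normalized log2 table of the authors was not used here.

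Counts were tested with edgeR 4.0.16 in R 4.3.3: filterByExpr, TMM, 10 group means over all 30 libraries, the quasi-likelihood F test and Benjamini-Hochberg adjustment over 15627 genes at 0.05. The 4 contrasts were ALK7-labelled against control with DOX alone and with activin B, the difference of these, and ALK7-labelled against ALK7-DN. Activin B against DOX alone within a line was read from the same fit. SE is the size of the log2 fold change over the root of F, and CPM uses TMM-scaled library sizes. Library values on the log2 scale had a prior count of 2. Between replicates of the 6 DOX libraries compared the chi-square per degree of freedom was 7.74 to 14.1, above what counting error alone gives. On data simulated for the DOX comparison (15400 genes, 100 changed per size) 73% of changes of 0.5 and 92% of changes of 1 on the log2 scale were recovered, with 3 false calls. The simulated counts were independent, took their spread from the fit itself and had no GC trend. Only genes above 2 CPM were changed, and all other means were equal over the groups. The simulation therefore does not give the rate of false calls in the real data.

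Named genes were receptors and SMADs; up to 15 per direction with the largest change among called genes of at least 2 CPM with a regular symbol and no overlap; up to 5 per direction with the highest level among called genes of at least 1.5-fold; up to 10 per direction that recurred with activin B; from each list the 3 genes of lowest p; and up to 5 per direction with the largest change also called against ALK7-DN. There were 39 lists with 1125 genes, written from textbook knowledge. Members and lists were chosen with earlier results of these data known, so they are not independent of them. Gene positions and GC content came from the GENCODE annotation and transcripts of GRCm38, the assembly of mm10, and promoters from RefSeq (GRCm38.p6). Promoters matched 4 of 5 genes looked for, Id1 not among them.

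Alternatives were DESeq2 1.42.0, voom in limma 3.58.1, RLE size factors, no low-count filter, batch 1 alone, only the groups compared, the replicate number as a block, a GC correction (spline of 5 degrees of freedom) with and without the block, and leaving out each library. Replicate numbers paired ALK7-labelled and ALK7-DN libraries by the correlation of their deviations from the group means over 12229 genes (0.252, 0.175 and 0.169), and 552 genes were called there with the replicate block against 383 without.

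Some genes are not reported here, and counts over lists include them.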

Additional observations from a re-analysis of the deposited data

Results flagged for a closer look

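In 4 genes the difference between the ALK7-labelled and control lines was itself different with activin B and with DOX alone (edgeR interaction term, adjusted over all genes tested). In Marcksl1, an actin-associated substrate of protein kinase C, the log2 fold change was 1.00 ± 0.14 larger with activin B (adjusted p = 0.00224). It stood at 19.5 and 18.6 CPM in control and ALK7-labelled libraries with DOX alone (-0.07, adjusted p = 0.838) and at 24.4 and 46.5 CPM with activin B (0.93, adjusted p = 1.31e-06). In Sox4, a progenitor transcription factor, it was 0.60 larger (adjusted p = 0.00995), with 29.8 and 32.0 CPM with DOX alone and 77.7 and 127 CPM with activin B. In Dnm3, a dynamin, it was 0.54 larger (adjusted p = 0.0313), with 22.2 and 19.7 CPM against 42.6 and 54.6 CPM. In Scgn, a calcium sensor of beta cells, the difference was -0.42 (adjusted p = 0.0294), with 293 and 296 CPM against 218 and 164 CPM. None of the 4 was called with DOX alone. Leaving out control activin B replicate 1 gave 21 such genes and control activin B replicate 3 gave 6, and each of the other libraries but control DOX replicate 2 left 1 or 2.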

How the results depend on the processing

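Among the named called genes, none changed direction under the alternatives run. The 310 genes called with DOX alone were 410 in DESeq2, 279 in voom, 316 with RLE size factors and 269 with batch 1 alone. They were 186 with no low-count filter, 159 with only the groups compared (119 of the 310), 529 with the replicate block, 49 with the block and only the groups compared, 766 with the GC correction, 1346 with both GC correction and block, and 151 to 226 with 1 library left out. The replicate numbers do not clearly pair these libraries by their correlations (0.218, 0.0367 and 0.0925 for like numbers). Those of unlike numbers ran from -0.187 to 0.104, and ALK7-labelled replicate 3 was closest to control replicate 2.

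With activin B the 708 became 1251 with the GC correction, 1851 with GC and block, 46 with only the groups compared, 1082 with the block, 1 with the block and only those groups, and 360 to 925 with 1 library left out. Against ALK7-DN the 383 became 687 with the GC correction, 1148 with GC and block, 552 with the block, 1081 with the block and only those groups, and 206 to 262 with 1 library left out. The 4 interaction calls became 33 in DESeq2, 29 with GC, 110 with GC and block, 2 with no filter or batch 1 alone, 0 with only the groups compared (with or without the block), 27 with the block, and 1 to 21 with 1 library left out. In the fits without a library the lone pair is assumed to vary like the other groups. The cause of these shifts was not tested.

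The median of the genes raised by activin B elsewhere (0.190) was 0.0674 with members from sh1/2 cells alone, 0.0488 with no minimum fold and 0.148 to 0.232 with 1 library left out; that of the lowered genes (-0.0499) was -0.0836, -0.0135 and -0.0622 to -0.0254, and -0.0722 with the GC correction, added after seeing the data like the chromosome medians. Called members were 3 to 4 of the BMP list, 4 to 7 of the imprinted list and 0 to 2 of the cholesterol list with 1 library left out, and 6, 15 and 5 of the cholesterol list in DESeq2, with GC and with the block. Of 76 named called genes 19 kept the call in all 16 alternatives, among them Id2, Smad9, Nbl1, Slit2, Peg10, Meg3, Trpm5, Pappa2, Homer2, Sorcs1, Serping1 and Fxyd2. Id3 lost it only with the block and only the groups compared (0.0554).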
